A study of Homo sapiens with 10 samples.

Results

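E-cadherin (CDH1) and 9 other genes of the epithelial cell junction were followed through 8 H3K27ac peak lists of 2 HER2 breast cancer lines. The 10 genes were CDH1, CDH3, CTNNA1, CTNNB1, CTNND1, CLDN3, CLDN4, CLDN7, EPCAM and TJP1, taken by name, among 19605 protein-coding genes of GENCODE release 44. Peaks were collected over each gene body with 50 kb on either side. Merging of overlapping peaks over the 8 lists gave 76044 regions, of which 153 touched at least 1 of these windows.

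The lines were SKBR3 and MDA-MB-453, both established from HER2 breast cancers. All cells of both lines were starved in Opti-MEM for 8 h. The treated groups then received TWEAK, the ligand of the Fn14 receptor, at 10 ng/ml for 48 h with renewal at 24 h, and the untreated groups did not. Each of the 4 groups had 2 peak lists, so that 4 lists stood for each line. Nothing in the labels says whether replicates came from separate cultures, and p-values therefore measure the spread between these lists only.

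Epithelial cells are held together by adherens junctions, in which a cadherin binds its partner on the next cell and is tied inside the cell to actin through the catenins. Above them lie tight junctions, whose claudins seal the space between cells and are anchored by scaffold proteins. Acetylation of lysine 27 on histone H3 marks active promoters and enhancers, and the loss of E-cadherin is a classic feature of tumour cells that have left the epithelial state.

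A pair of measures was taken in every list. The promoter percentile is the rank, from 0 to 100, of the highest scoring peak within 1 kb of a protein-coding start site of the gene, among all peaks of the same list by the score that the caller gave. It is 0 where there was no peak. Values of 4 lists are given in the order untreated replicates 1 and 2, then TWEAK replicates 1 and 2. The covered length is the length in kb of the window that lay under a peak. SKBR3 lists held 43684 to 51687 peaks over 92.1 to 105.7 Mb, and MDA-MB-453 lists held 36148 to 37813 peaks over 70.5 to 72.1 Mb. The share of peaks with a q-value under 1e-05 was 39.4% to 52.6% in SKBR3 and 59.8% to 63.8% in MDA-MB-453. Results were therefore repeated with these peaks only and with lists of equal size. The cause of the difference between the lists was not tested. As a check on cell type, ERBB2 and GRB7 had a promoter peak in all 8 lists, as did all 5 of 5 epithelial markers (EPCAM, KRT7, KRT8, KRT18 and KRT19). KRT8 and KRT18 had equal percentiles in every MDA-MB-453 list. Such a check cannot show a swap of lines or treatments. Of markers of other cells, 1 of 5 fibroblast genes (COL1A1), 1 of 4 endothelial genes (CDH5) and 0 of 4 leukocyte genes had a promoter peak in any list. COL1A1 was at 79.3 to 92.3 in SKBR3 and 99.6 to 99.7 in the other line, and CDH5 at 91.4 to 96.5 and 89.2 to 90.7.

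All 10 genes had a promoter peak in at least 1 list, beside 12950 of all 19605 genes, and 8 of them had one in all 8 lists. The 2 exceptions were the 2 cadherins, which were without a promoter peak in all 4 SKBR3 lists. The share of all genes with a promoter peak in all 8 lists was not computed. Promoter percentiles of the lines did not overlap for 7 of the 10 genes. CTNNA1, CTNNB1, CLDN4 and CLDN7 were higher in SKBR3, and CDH1, CDH3 and TJP1 were higher in MDA-MB-453. Of the 12950 genes with a promoter peak in any list, 28.8% were higher in SKBR3 without overlap and 30.2% were higher in MDA-MB-453, so that 4 and 3 of 10 genes are shares close to these. Each of the 7 genes had an exact two-sided permutation p of 0.0286 (n = 4 lists per line), which is the smallest that 4 lists against 4 can give, and a Benjamini-Hochberg adjusted p of 0.0484 over the 12950 genes. With only the 5′ end of each gene as its start site, 4 of 10 genes were without overlap: CDH1 was higher in MDA-MB-453, and CTNND1, CLDN7 and EPCAM were higher in SKBR3. CTNNB1 and TJP1 had a difference of 0 there, and their peaks, like that of CLDN4, lay at internal start sites. The share of all genes without overlap was not computed with the 5′ end alone. This count of 4 is therefore not read as a result about the junction genes.

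**Figure D1:**
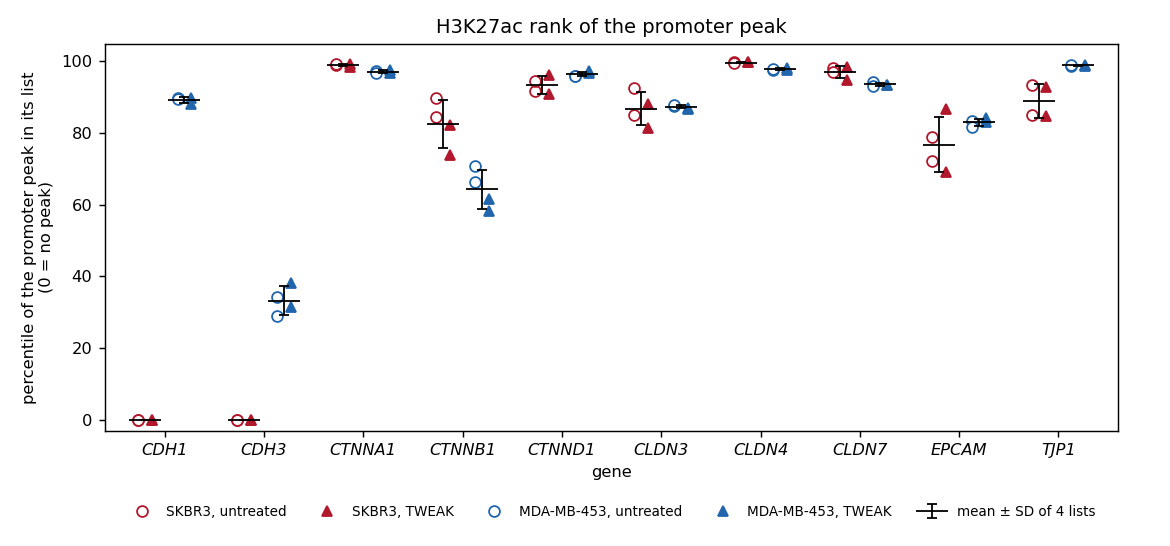
Promoter percentile (y axis, rank of the promoter peak within its list, 0 where there was no peak) of the 10 genes (x axis) in the 8 lists. Open circles are untreated and filled triangles TWEAK lists, SKBR3 in red and MDA-MB-453 in blue, and bars show the mean ± SD of the 4 lists of a line. CDH1 and CDH3 lie at 0 in SKBR3 and CDH1 lies between 88.1 and 89.9 in MDA-MB-453.

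CDH1 (ENSG00000039068.20, hg38 chr16:68737292-68835537, plus strand) encodes E-cadherin, the main cadherin of epithelial cells. Its promoter percentile was 0 in each of the 4 SKBR3 lists. In MDA-MB-453 it was 89.8 and 89.6 in the untreated lists and 88.1 and 89.9 in the TWEAK lists. The promoter peak of MDA-MB-453 ran from just before the start site into the gene, was 13452 to 13675 bp wide, and had a fold enrichment over background of 14.6 to 17.1. The MDA-MB-453 lists thus agreed closely with each other at a gene where no SKBR3 list held any peak.

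The whole CDH1 gene body was empty in SKBR3. Each MDA-MB-453 list held 8 peaks in it, which covered 27.3 ± 0.98 kb (SD, n = 4), and each SKBR3 list held 0 peaks and 0 kb. The difference of -27.3 kb (SKBR3 minus MDA-MB-453) gave an exact permutation p of 0.0286. Besides the promoter peak, the highest ranked of these MDA-MB-453 regions was a 5.18 kb stretch within the gene (chr16:68775916-68781091), at a percentile of 85.3 ± 0.78 (SD, n = 4). With the flanks included, the covered length was 0.25, 0.40, 0 and 0 kb in the SKBR3 lists and 32.9, 30.9, 31.9 and 32.5 kb in the MDA-MB-453 lists. The small SKBR3 value belonged to 1 peak at the start of the next gene, TANGO6, in the untreated lists.

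CDH3 (ENSG00000062038.15, chr16:68636189-68727468), which encodes P-cadherin and lies directly upstream of CDH1 on the same strand, had the same pattern at a lower level. Its promoter percentile was 0 in all 4 SKBR3 lists, and 29.0, 34.3, 38.3 and 31.5 in the MDA-MB-453 lists. This peak lay at an internal coding start site (chr16:68644764-68647841). At the 5′ end of CDH3 the lines overlapped, with a difference of -1.28 percentile points (exact permutation p = 1), since 1 MDA-MB-453 list alone had a peak there. With peaks of a q-value under 1e-05 only, CDH3 had no promoter difference (0 percentile points, exact permutation p = 1). The promoter peak was 2095 to 3078 bp wide, with a fold enrichment of 3.69 to 4.19. Its window held no SKBR3 peak at all and 29.9 ± 1.66 kb of MDA-MB-453 peaks (SD, n = 4). Since the windows of CDH1 and CDH3 overlap, the large CDH1 promoter peak is counted in both.

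The SKBR3 stretch without a peak around the CDH1 start was 351.9 and 303.9 kb long in the untreated lists and 461.8 and 481.5 kb in the TWEAK lists. It held the whole of CDH1 and CDH3 in all 4 lists and ZFP90, a zinc finger gene, in 3 of them. Outside it the peaks of both lines resumed. SLC7A6 and PRMT7 on one side and UTP4 and CHTF8 on the other had a promoter peak in all 8 lists. An SKBR3 list held 43661 to 51664 gaps between peaks, of which 860 to 1800 were longer than this stretch. Of all 19605 genes, 652 (3.33%) had no gene body peak in any SKBR3 list and at least 1 in every MDA-MB-453 list, and 761 (3.88%) had the reverse. CDH1 was among the 3 of the 652 with the most kb of gene body covered in MDA-MB-453, beside ANKRD30A and PTPRT. This rank was not scaled to gene length. A deleted gene gives no reads and an unacetylated gene gives no enrichment, and in peak lists these cannot be told apart. Copy number was not measured and the input libraries were not used here.

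**Figure D2:**
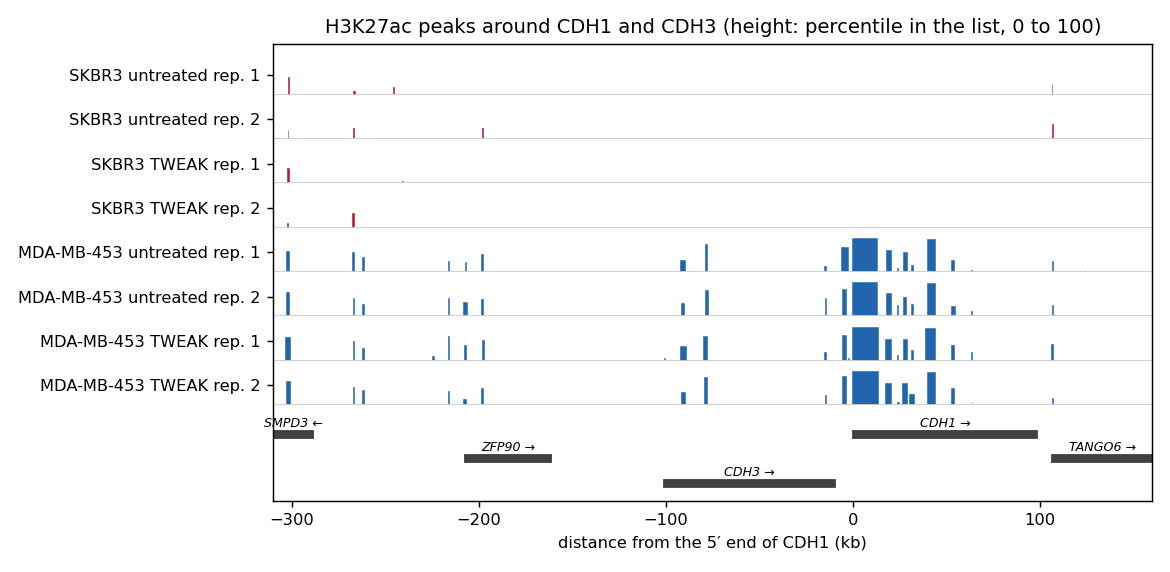
H3K27ac peaks around CDH1 and CDH3 in the 8 lists, in kb from the 5′ end of CDH1 (x axis). Each box is a peak, its height is its percentile within the list (0 to 100, scale the same in all rows), and gene bodies are drawn below with arrows for their direction. The 4 SKBR3 rows are empty over both cadherin genes, where each MDA-MB-453 row holds 8 peaks in CDH1.

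The promoter percentiles over the 8 lists that lay nearest to those of CDH1 were of ARID5A, INKA2 and RPSA2, at Euclidean distances of 3.11, 3.25 and 3.52 percentile points. All 3 were at 0 in the 4 SKBR3 lists, and between 86.6 and 91.7 in the MDA-MB-453 lists. None of the 3 lies on chromosome 16.

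The catenins link the cadherin tail to actin. CTNNA1 (ENSG00000044115.21, chr5:138610967-138935034, plus strand) encodes alpha-E-catenin, the actin-binding link. Its promoter percentile was 99.1, 99.2, 99.3 and 98.6 in SKBR3 against 97.3, 96.7, 96.9 and 97.6 in MDA-MB-453. The lines did not overlap, but at 99.0 ± 0.31 and 97.1 ± 0.40 (SD, n = 4 each) both stood near the top of their lists. These values belong to different start sites. In SKBR3 the highest peak lay at an internal start 142 kb into the gene (chr5:138748446-138757488), where MDA-MB-453 was at 96.3 ± 0.48. In MDA-MB-453 it lay at the 5′ end (chr5:138606517-138612202), where SKBR3 was at 96.7 ± 1.11 (SD, n = 4 each). Taken at the 5′ end alone, the difference was -0.44 percentile points with an exact permutation p of 0.514.

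The covered length of the CTNNA1 window was longer in SKBR3. Peaks covered 94.6, 68.1, 94.7 and 74.7 kb of its window in SKBR3, against 23.4, 22.8, 22.7 and 21.5 kb in MDA-MB-453. With peaks of a q-value under 1e-05 only, the mean difference was 22.2 kb in place of 60.4 kb. The window held 66 regions, 17 of which were in every SKBR3 list and absent from MDA-MB-453, while 0 had the reverse pattern. Of these 17 regions 14 lay within CTNNA1, and 15 had a mean percentile under 50 in SKBR3. The 2 others were stronger. A 12.4 kb region (chr5:138661242-138673656) within 1 kb of an internal transcript start of CTNNA1, coding or not, reached 89.9 ± 3.65 (SD, n = 4). A 3.47 kb region in the gene (chr5:138714634-138718098) reached 76.7 ± 5.50 (SD, n = 4). Both were at 0 in MDA-MB-453.

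The internal CTNNA1 promoter is printed because it is the strongest catenin promoter of SKBR3. RefSeq lists starts at chr5:138753425 and chr5:138753822 in this peak, and the bases before the first start follow (GRCh38.p14, chr5:138753175-138753417, plus strand, 5′ to 3′). Capitals mark GGGCGG, the GC box bound by Sp1-type factors, on either strand.
CTNNA1: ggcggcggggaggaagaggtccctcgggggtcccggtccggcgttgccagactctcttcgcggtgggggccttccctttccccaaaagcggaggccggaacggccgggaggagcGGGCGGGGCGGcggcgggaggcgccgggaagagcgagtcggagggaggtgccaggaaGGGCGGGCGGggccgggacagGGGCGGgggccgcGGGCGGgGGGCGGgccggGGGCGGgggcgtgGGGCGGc
Over the 250 bases before the first start there were 9 such matches, overlapping ones included. Over the 250 bases before the second start there were 4, at a GC share of 80.4% against 80% before the first. Of 35116 promoters in the RefSeq table, 42.6% held at least 1 match in a stretch of this length, and 4.15% held 5 or more.

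**Figure D3:**
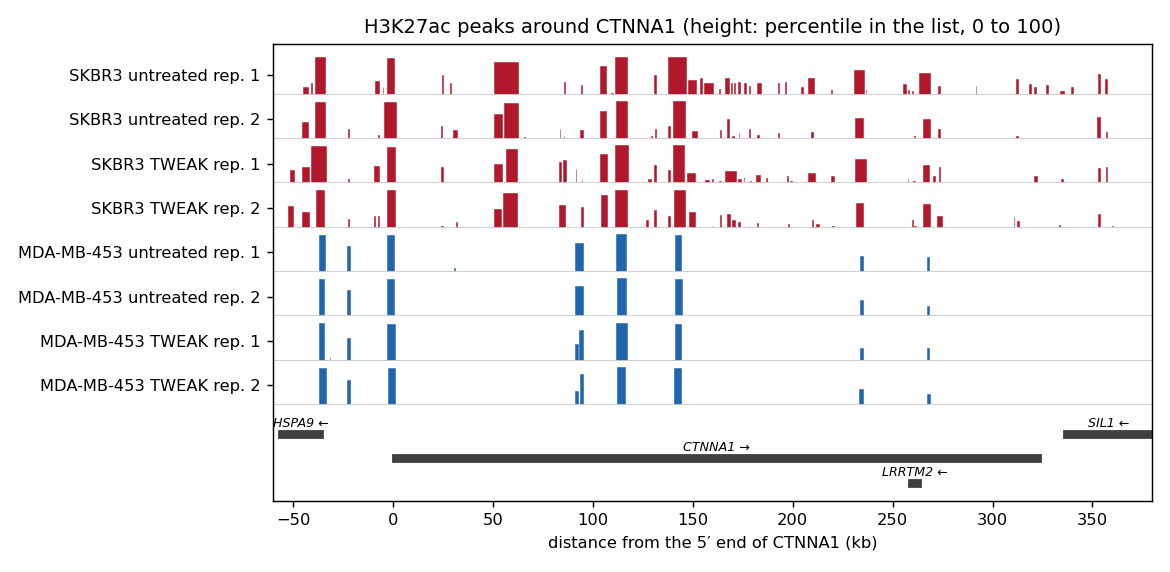
H3K27ac peaks around CTNNA1 in the 8 lists, in kb from the 5′ end of the gene (x axis). Each box is a peak and its height is its percentile within the list (0 to 100), with gene bodies below. The rows of SKBR3 hold 36 to 49 peaks in the window and those of MDA-MB-453 hold 8 to 10, while the peaks at the 5′ end and at the internal start stand in all 8 rows.

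CTNNB1 (ENSG00000168036.18, chr3:41194741-41260096) encodes beta-catenin, which binds the cadherin tail and also carries Wnt signals to the nucleus. Its promoter percentile was 89.9, 84.5, 82.4 and 73.8 in SKBR3 against 66.4, 70.9, 61.7 and 58.3 in MDA-MB-453. The mean difference was 18.3 percentile points without overlap, but the lines overlapped with lists of equal size (13.8 points), with a q-value under 1e-05 (21.6 points) and in rank by width (23.1 points), each with an exact permutation p of 0.0857. Its window was sparse, with 4.48 ± 1.42 kb covered in SKBR3 against 1.56 ± 0.52 kb in MDA-MB-453 (SD, n = 4 each). A region within the gene (chr3:41221382-41223736) was present in all 4 SKBR3 lists at 55.4 to 66.1 and in 0 MDA-MB-453 lists. The promoter at its internal start is shown up to the first annotated exon (GRCh38.p14, chr3:41199255-41199388, plus strand), again with GGGCGG in capitals.
CTNNB1: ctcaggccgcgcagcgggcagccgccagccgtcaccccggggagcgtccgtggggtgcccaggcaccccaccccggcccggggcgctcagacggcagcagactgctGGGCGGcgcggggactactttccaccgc

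CTNND1 (ENSG00000198561.16, chr11:57753243-57819546) encodes p120-catenin, which holds cadherins at the cell surface. Its promoter percentiles, 91.7, 94.6, 90.9 and 96.3 in SKBR3 against 95.9, 96.1, 96.7 and 97.2 in MDA-MB-453, overlapped (exact permutation p = 0.0857, n = 4 per line). These values mix start sites. Both replicates 2 of MDA-MB-453 had their highest peak in chr11:57767772-57802263, and the other lists had theirs in chr11:57760441-57765963. At the 5′ end, a region shared with a BTBD18 start (chr11:57751338-57752497) was at 38.0 ± 17.1 in SKBR3 (SD, n = 4) and in 0 MDA-MB-453 lists. The covered length did not overlap, at 54.8 ± 5.50 kb in SKBR3 against 20.5 ± 0.87 kb in MDA-MB-453 (SD, n = 4 each). A region 11.7 kb wide upstream of the gene, in its neighbour TMX2 (chr11:57725514-57737193), was present in the 4 SKBR3 lists at 85.7 ± 2.20 (SD, n = 4) and in 0 MDA-MB-453 lists.

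The claudins form the strands of the tight junction. CLDN3 and CLDN4 are neighbours on chromosome 7, and their windows share regions. CLDN3 (ENSG00000165215.6, chr7:73768997-73770270, minus strand) did not differ beyond the spread of the lists at its promoter, with percentiles of 92.5, 85.1, 88.3 and 81.4 in SKBR3 against 87.5, 87.9, 87.2 and 86.8 in MDA-MB-453 (exact permutation p = 0.771). CLDN4 (ENSG00000189143.10, chr7:73799542-73832690, plus strand) was higher in SKBR3, at 99.8, 99.4, 99.8 and 99.8 against 97.6, 97.8, 98.2 and 97.8. These values belong to an internal start site of CLDN4. At its 5′ end the lines overlapped. The region there (chr7:73799366-73800796) was at 0, 0.36, 14.1 and 0.07 in SKBR3 and at 0 in MDA-MB-453. Its promoter peak was 13776 to 22909 bp wide in SKBR3 against 7522 to 8301 bp in MDA-MB-453, with fold enrichments in the same range (23.7 to 29.7 and 24.5 to 28.4). Both lines thus ranked the CLDN4 promoter high, and the lists differed in how far its peak spread.

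Between the CLDN3 gene and the CLDN4 promoter, 2 regions present in all 8 lists differed widely in rank. The first (chr7:73790657-73795189) was at 98.4 ± 0.91 in SKBR3 against 46.9 ± 4.68 in MDA-MB-453, and the second (chr7:73804948-73813721) was at 96.2 ± 2.13 and 37.8 ± 10.8 (SD, n = 4 each). A region downstream of CLDN4 (chr7:73879596-73882933) was in all 4 SKBR3 lists, at 71.9, 80.7, 89.1 and 95.2, and in 0 MDA-MB-453 lists. Window coverage was 45.3 ± 7.57 kb in SKBR3 against 24.5 ± 0.99 kb for CLDN3, and 58.5 ± 12.0 kb against 25.6 ± 0.55 kb for CLDN4. The CLDN3 promoter, whose ranks overlapped, held 4 matches to GGGCGG (GRCh38.p14, chr7:73770271-73770520, minus strand, in capitals).
CLDN3: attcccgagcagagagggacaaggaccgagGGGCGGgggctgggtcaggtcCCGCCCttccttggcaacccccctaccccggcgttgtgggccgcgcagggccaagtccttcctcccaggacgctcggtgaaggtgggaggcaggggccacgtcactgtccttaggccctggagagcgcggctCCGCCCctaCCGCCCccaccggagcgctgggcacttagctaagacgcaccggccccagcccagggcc
In contrast, the CLDN4 stretch held 1 GGGCGG match and 2 matches to TGANTCA, which 6.57% of promoters hold at least once. This is a loose form of the AP-1 motif with any base in its middle, and the usual form has C or G there. The first match has T in its middle and the second has C. The 30 bases around each match are given (chr7:73830746-73830775 and chr7:73830827-73830856, plus strand), with the motif in capitals.
CLDN4, first match: ctgggctgTGATTCAgtgtctgtctcccgg
CLDN4, second match: ctggatagTGACTCAgggacccggggctgg

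CLDN7 (ENSG00000181885.18, chr17:7259903-7263983, minus strand) was higher in SKBR3 at its promoter, with 98.3, 97.1, 98.4 and 94.8 against 94.4, 93.1, 93.5 and 93.3. The call was lost with lists of equal size (exact permutation p = 0.143), a q-value under 1e-05 (p = 0.0857), rank by fold enrichment (p = 0.229) and rank by width (p = 0.0571). Its window lies in a gene-dense stretch in which 9 of 10 regions were in all 8 lists and 0 were specific to a line. Coverage was longer in SKBR3, at 47.9 ± 5.25 kb against 30.4 ± 1.62 kb (SD, n = 4 each). The 250 bases before the downstream RefSeq start (GRCh38.p14, chr17:7262479-7262728, minus strand) held 4 matches to CACCTG, the E-box bound by repressors of the SNAI and ZEB families. Of the 35116 promoters 17.5% held this motif at least once and 0.464% held it 3 or more times. The 250 bases before the upstream RefSeq start (chr17:7263214-7263463), also in a peak of all 8 lists, held 0 matches. The stretch before the downstream start overlaps annotated exons. Each match is shown in 30 bases with the motif in capitals (chr17:7262631-7262660, chr17:7262592-7262621 and chr17:7262479-7262508, minus strand).
CLDN7, first match: ttcctcctCACCTGggcaaggaggggtggg
CLDN7, second match: ttccggttCAGGTGagtgtcccttcggtga
CLDN7, last 2 matches: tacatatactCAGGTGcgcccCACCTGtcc
The other 5 genes with an entry in the RefSeq promoter table (CTNNA1, CTNNB1, CLDN3, CLDN4 and TJP1) had 0 CACCTG matches in the stretches before their starts that lay in a peak. A match is only a match of letters, and binding was not measured.

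EPCAM (ENSG00000119888.11, chr2:47345158-47387601, plus strand) encodes an adhesion molecule of epithelial cells. Its promoter percentile overlapped between the lines, at 72.2, 79.0, 69.3 and 86.7 in SKBR3 against 83.3, 81.7, 84.1 and 83.0 in MDA-MB-453 (exact permutation p = 0.2). The gene has peaks at 2 start sites, and these differed between the lines in opposite directions. At the upstream start (chr2:47343775-47346121), shared with the divergent transcript EPCAM-DT, the percentile was 76.8 ± 7.75 in SKBR3 against 18.1 ± 16.3 in MDA-MB-453, where untreated replicate 1 had no peak. At the downstream start (chr2:47368247-47370933) it was 68.0 ± 11.2 in SKBR3 against 83.0 ± 1.02 in MDA-MB-453 (SD, n = 4 each). With the 5′ end of the gene as its start site, EPCAM was 58.7 percentile points higher in SKBR3 (exact permutation p = 0.0286).

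TJP1 (ENSG00000104067.17, chr15:29699367-29968915, minus strand) encodes ZO-1, the scaffold that ties tight junction proteins to actin. It was higher in MDA-MB-453, at 98.9, 99.0, 99.1 and 98.7, than in SKBR3, at 93.4, 85.0, 93.0 and 84.8. The fold enrichment of its promoter peak was 26.7 to 32.9 in MDA-MB-453 and 9.11 to 14.8 in SKBR3. It was the only one of the 10 genes whose covered length overlapped between the lines, at 8.82 ± 2.64 kb in SKBR3 against 8.58 ± 0.67 kb in MDA-MB-453 (exact permutation p = 0.971). Within the gene, a region at chr15:29734249-29737558 was in all 4 SKBR3 lists and 0 MDA-MB-453 lists, and a region at chr15:29788520-29791146 had the reverse pattern. The peak lay at an internal start, and a RefSeq start at the upstream end of the gene was in no peak of any list. The bases before the internal start follow, up to the first annotated exon (GRCh38.p14, chr15:29822504-29822718, minus strand), with GGGCGG on either strand in capitals.
TJP1: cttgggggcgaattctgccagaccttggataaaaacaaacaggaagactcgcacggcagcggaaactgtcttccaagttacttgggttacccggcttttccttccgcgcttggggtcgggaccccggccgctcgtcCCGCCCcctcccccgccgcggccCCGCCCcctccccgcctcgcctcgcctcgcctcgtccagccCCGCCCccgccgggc

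Over the whole windows, the covered length did not overlap between the lines for 9 of the 10 genes. It was longer in SKBR3 for CTNNA1, CTNNB1, CTNND1, CLDN3, CLDN4, CLDN7 and EPCAM, and longer in MDA-MB-453 for CDH1 and CDH3. Each of the 9 had an exact permutation p of 0.0286 (n = 4 per line) and a Benjamini-Hochberg adjusted p of 0.0418 over 18218 genes. Across those genes, 43.8% were longer in SKBR3 without overlap and 24.6% were longer in MDA-MB-453, and SKBR3 lists covered more of the genome in all. Per Mb covered by the list, the lines overlapped for CTNNB1, CLDN7 and EPCAM (exact permutation p = 0.0571, 0.0857 and 0.571). Within the gene body alone the difference was 0 for CLDN3 and CLDN7, and EPCAM also overlapped there and with a q-value under 1e-05 (exact permutation p = 0.571 and 0.257). The median difference was 10.5 kb over the 10 genes and 0.98 kb over all 18218. The 153 regions included 25 that were in every SKBR3 list and absent from MDA-MB-453 (16.3%, against 14.1% of all 76044 regions) and 15 with the reverse pattern (9.80%, against 10.5%). Of these 15 regions 12 lay in the windows of the 2 cadherins.

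**Figure D4:**
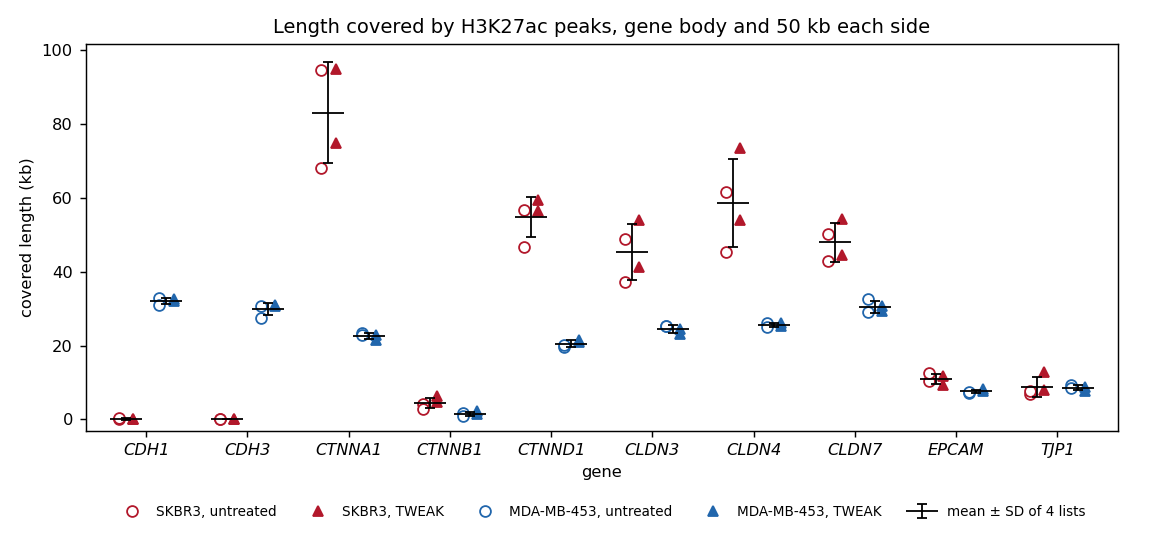
Length in kb of the gene body with 50 kb on each side that lay under H3K27ac peaks (y axis) for the 10 genes (x axis). Open circles are untreated and filled triangles TWEAK lists, SKBR3 in red and MDA-MB-453 in blue, with the mean ± SD of 4 lists. CTNNA1 spans 68.1 to 94.7 kb in SKBR3 and 21.5 to 23.4 kb in MDA-MB-453, and the 2 cadherins are the only genes with more in MDA-MB-453.

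The effect of TWEAK was then examined within each line. With 2 lists against 2 the smallest exact permutation p is 0.333, so none of these differences could pass that test. A limma fit over all 8 lists, with 4 residual degrees of freedom, called 0 of the 10 promoters in either line at an adjusted p under 0.05, beside 0.819% of all genes in SKBR3 and 0.0232% in MDA-MB-453. At an unadjusted p under 0.05 it also called 0 of 10 in either line, and the smallest adjusted p was 0.423 for CTNNB1 in SKBR3. In SKBR3, 0 genes were higher in both TWEAK lists than in both untreated lists at the promoter and 1 was lower, beside 9.27% and 24.5% of all genes with a promoter peak in SKBR3. The gene that was lower was CTNNB1, at 82.4 and 73.8 with TWEAK against 89.9 and 84.5 without (difference -9.09 percentile points). In MDA-MB-453, 1 gene was higher and 2 were lower, beside 25.6% and 12.2% of all genes. CTNND1 was 0.97 points higher, CLDN3 was 0.73 points lower (-0.73), and CTNNB1 was again lower, at 61.7 and 58.3 against 66.4 and 70.9 (difference -8.66). Ranked by peak width, CTNNB1 had the opposite sign in both lines, at 4.11 and 27.3 percentile points, and its peak was widest in the second TWEAK list of each line. CDH1 and CDH3 stayed without a gene body peak in SKBR3 with TWEAK, and the CDH1 promoter in MDA-MB-453 differed by -0.66 points (exact permutation p = 1).

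The covered length with TWEAK was also compared. In SKBR3 it was longer in both TWEAK lists than in both untreated lists for 2 genes, beside 19.9% of all genes, and shorter for 1, beside 14.5%. CTNNB1 was at 4.68 and 6.22 kb with TWEAK against 4.22 and 2.78 kb without, and TJP1 was at 7.97 and 12.7 kb against 7.02 and 7.57 kb. The gene with the shorter length was CDH1, through the TANGO6 peak. In MDA-MB-453 it was longer for CTNND1 and EPCAM and shorter for CTNNA1 and CLDN3, beside 19.4% and 16.7% of all genes. In the limma fit 0 of the 10 genes had an adjusted p under 0.05 in either line, beside 1.38% of all genes in SKBR3 and 0% in MDA-MB-453. At an unadjusted p under 0.05 it called 1 in SKBR3 (CTNNB1, adjusted p = 0.245) and 0 in MDA-MB-453.

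Regions that appeared or disappeared with TWEAK were few in the windows. For this count, peaks were merged within each line. In SKBR3, 3 of 130 regions (2.31%) were in both TWEAK lists and neither untreated list, beside 4.61% of all SKBR3 regions, and 2 (1.54%) had the reverse pattern, beside 1.4%. In MDA-MB-453 it was 1 of 74 (1.35%, beside 1.33%) and 0 (beside 1.3%). The first SKBR3 region with TWEAK only was a stretch 35.2 kb upstream of CTNNB1 (chr3:41158779-41160379, at 18.6 and 58.0). The second lay within the gene body of HSPA9, upstream of CTNNA1 (chr5:138558650-138561302, at 32.5 and 55.7). It was within 1 kb of an HSPA9 transcript start, coding or not. The third lay beyond the 3′ end of TJP1 (chr15:29669677-29672161, at 26.3 and 44.5). The regions found only without TWEAK were a stretch in CTNNA1 (chr5:138803493-138803981, at 29.8 and 13.0) and the TANGO6 start (chr16:68843559-68843953, at 25.1 and 38.7). In MDA-MB-453 a stretch in CTNND1 (chr11:57792065-57793372) was at 9.68 and 14.2 with TWEAK only, and it overlapped a peak in all 4 SKBR3 lists.

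The 2 TWEAK-only regions of SKBR3 that lie outside protein-coding genes are shown at their matches to TGANTCA, the loose AP-1 motif. AP-1 and NF-κB are factors that TWEAK signalling is known to engage. The region near CTNNB1 held 2 matches to TGANTCA in 1601 bases, which 14.1% of stretches of that length around the centres of all regions matched or exceeded. The region near TJP1 held 4 in 2485 bases, which 2.10% did. The second CTNNB1 match and the first and second TJP1 matches have C or G in the middle, and the others have A. Shares for the narrower form with C or G were not computed. Neither held a match to the NF-κB motif, which 19.5% and 26.5% of such stretches hold at least once. Each TGANTCA match is given within 60 bases (hg38, plus strand) with the motif in capitals, at chr3:41159169-41159228 and chr3:41160016-41160075 and at chr15:29669973-29670032, chr15:29670391-29670450, chr15:29671060-29671119 and chr15:29671481-29671540.
CTNNB1 region, first match: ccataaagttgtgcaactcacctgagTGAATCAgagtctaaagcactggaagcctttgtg
CTNNB1 region, second match: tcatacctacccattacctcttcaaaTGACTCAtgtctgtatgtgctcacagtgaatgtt
TJP1 region, first match: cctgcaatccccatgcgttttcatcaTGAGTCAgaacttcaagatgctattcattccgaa
TJP1 region, second match: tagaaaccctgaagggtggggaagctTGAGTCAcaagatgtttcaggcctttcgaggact
TJP1 region, the third match: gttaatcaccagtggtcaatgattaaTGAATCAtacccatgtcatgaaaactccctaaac
TJP1 region, last match: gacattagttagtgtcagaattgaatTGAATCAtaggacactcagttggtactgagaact

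Finally, 72 other junction genes in 4 lists and 6 transcription factors known to repress CDH1 were set beside these 10 by promoter percentile. Of the 72 junction genes 43 had a promoter peak in any list, beside 12950 of all 19605 genes. Of the 43, 20 were higher in SKBR3 without overlap and 10 were higher in MDA-MB-453, beside 28.8% and 30.2% of all genes with a promoter peak. The desmosome, the junction that ties keratin filaments of neighbouring cells, had 8 of 12 genes with a peak, of which 6 were higher in SKBR3 and 0 were lower, beside the same 28.8% and 30.2%. The median difference of its 8 genes was 11.7 percentile points, beside -0.05 over all 12950 genes. DSP, the plakin that anchors keratins, was at 87.8 ± 4.41 in SKBR3 against 38.1 ± 7.20 in MDA-MB-453 (SD, n = 4 each), and JUP, plakoglobin, was at 99.4 ± 0.24 and 92.4 ± 1.09. The plakophilins PKP1 and PKP2 were in all 4 SKBR3 lists, at 34.7 to 73.9 and 50.3 to 67.9, and in 0 MDA-MB-453 lists.

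Of 34 tight junction genes 22 had a promoter peak, 9 being higher in SKBR3 and 5 being lower (beside 28.8% and 30.2% of all genes), and the median difference of the 22 was 2.64 percentile points. PARD3, a polarity scaffold, was at 84.2 ± 6.13 in SKBR3 against 21.9 ± 9.59 in MDA-MB-453. CLDN8 had the opposite order, at 4.75 ± 9.50 and 70.6 ± 4.11 (SD, n = 4 each). The claudin CLDN9 was in all 4 SKBR3 lists, at 19.6, 84.5, 87.6 and 89.1, and in 0 MDA-MB-453 lists. Among 12 adherens junction partners 10 had a peak in all 8 lists, with 4 higher and 5 lower in SKBR3, again beside 28.8% and 30.2%. Of these, VCL, the actin linker vinculin, was at 99.5 ± 0.06 in SKBR3 against 95.2 ± 0.38 in MDA-MB-453.

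Of 14 other cadherins 3 had a promoter peak in any list, beside 12950 of all 19605 genes. Only CDH5, the endothelial cadherin, had one in all 8, at 93.9 ± 2.11 in SKBR3 against 90.1 ± 0.70 in MDA-MB-453. CDH2, N-cadherin, had none in any list. Among the 6 repressors of CDH1, SNAI1 was at 71.9, 67.8, 72.6 and 58.9 in SKBR3 and at 0 in all 4 MDA-MB-453 lists, and TCF3 was higher in SKBR3 (85.5 ± 3.92 against 74.3 ± 3.44). ZEB1 had the opposite order, at 53.1, 40.4, 16.4 and 0 in SKBR3 against 67.7, 70.9, 60.7 and 54.0 in MDA-MB-453. SNAI2 had a peak in 2 MDA-MB-453 lists only, and ZEB2 and TWIST1 had none. Expression was not measured in these files.

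**Figure D5:**
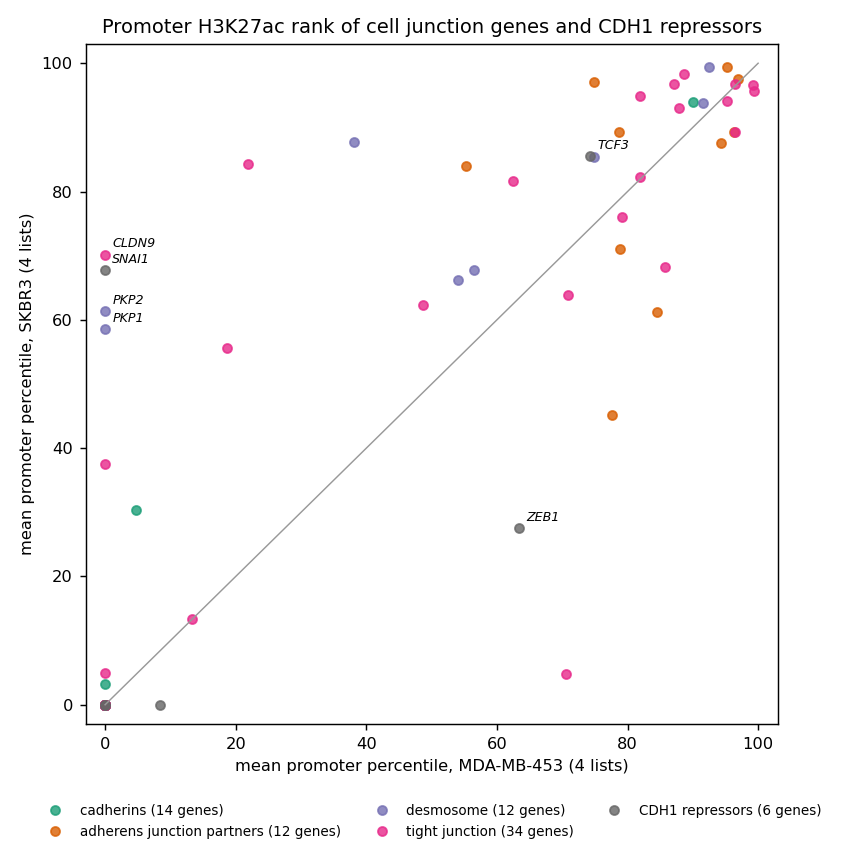
Mean promoter percentile over the 4 lists of MDA-MB-453 (x axis) and of SKBR3 (y axis) for 72 junction genes and 6 repressors of CDH1, coloured by list, with the diagonal drawn as a grey line. Genes without any promoter peak lie at the origin. CLDN9, SNAI1, PKP2 and PKP1 stand on the left edge with 0 in MDA-MB-453, and ZEB1 lies under the diagonal at 63.3 and 27.5.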

How the data were processed

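Of 10 samples, 8 are H3K27ac ChIP-seq libraries with a peak list and 2 are inputs, not used here. Per the labels, the submitters' processing notes and the study's methods, reads were trimmed with Trimmomatic and mapped with Bowtie2 to hg38, and the authors called peaks in each library with MACS2, subtracting input, and removed blacklisted regions with bedtools; tool versions are not given in the sources used here. Each deposited list has 9 columns: coordinates, a name, a score in whole numbers, the fold enrichment as a ratio to background, and p-value and q-value columns on the −log10 scale. The score equalled 10 times the −log10 q, cut to a whole number, for all but 7 to 18 peaks of a list. It grows with depth, so only its rank within a list was used. Read counts were not used here, the depth of a library is unknown, and no counting interval can be given. The lists hold peaks only, and a missing peak may be signal under the threshold.

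Chromosomes 1 to 22 and X were analysed, and 0 of 334329 peaks ended beyond its hg38 chromosome. Genes and start sites came from GENCODE release 44. Peaks overlapping by 1 bp or more over the lists were merged into regions. Lines were compared by exact two-sided permutation over the 70 splits of 8 lists, adjusted by the Benjamini-Hochberg method over all genes with a peak, TWEAK by exact permutation over 6 splits, and their interaction over 36. A call means that the groups do not overlap. The study compared reads with DiffBind, which these files do not allow. limma 3.58.1 in R 4.3.3 was an alternative (for TWEAK, with 4 group means, added after the data were seen), and so were a q-value under 1e-05, equal list sizes, a 50% overlap, flanks of 0 and 10 kb, coverage per Mb, 2.5 kb promoters, the 5′ end alone, other ranks, merging over 1 kb, a replicate block and leaving out each list. The functions were tested on simulated data. Promoter sequences came from RefSeq (GRCh38.p14), which listed 6 of the 10 genes with 13 starts, and the start with the highest GC share in a peak of all 8 lists was shown, or for CTNNA1 the first one. The E-box motif CACCTG, the GC box motif GGGCGG, the loose AP-1 motif TGANTCA and the NF-κB motif were searched on both strands. Where a stretch overlapped coding-transcript exons, it was ended there or shown in 30 bases. The members and lists were chosen with earlier results of these data known. All 10 genes are named. Of the 5 lists (4 of junction genes, 1 of CDH1 repressors), the 4 genes per direction with the largest difference among those in every list of 1 line and none of the other are named by rule, and the others, with their values, after these were seen. Tools were Python 3.11.15, numpy 2.4.6, pandas 2.3.3 and matplotlib 3.10.9.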

Additional observations from a re-analysis of the deposited data

Results flagged for a closer look

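In 2 of the 37 sets of 4 values (promoter percentile or covered length of a gene in 1 line) in which the lists differed, 1 list stood apart from the other 3 by Dixon's criterion, and chance gives about 1 in 20. The covered length of the CDH3 window was 27.4 kb in MDA-MB-453 untreated replicate 2, against 30.6 to 30.9 kb in the other 3 lists. The covered length of the TJP1 window was 12.7 kb in SKBR3 TWEAK replicate 2, against 7.02 to 7.97 kb in the other 3 lists, and without this list the TJP1 difference between the lines was -1.06 kb with an exact permutation p of 0.0857. SKBR3 TWEAK replicate 2 is also the list with the most peaks, and the part of this in the TJP1 value was not tested.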

How the results depend on the processing

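Of the 7, 9 and 40 calls between the lines (promoters, covered lengths, line-specific regions), the q-value under 1e-05 left 14 line-specific regions and the 5′ end alone 4 promoters, and each other alternative stayed within 1.5 times as a count. Apart from the 5′ end, the block and left-out lists, of single calls CDH3, CTNNB1 and CLDN7 were lost at promoters and CTNNB1, CLDN7, CLDN3 and EPCAM in covered length under the settings named beside them. Leaving out each list gave 7 to 9 promoters, 9 to 9 covered lengths, 40 to 45 regions and a CDH1 gene body difference of -27.6 to -26.8 kb. The numbers 1 and 2 were not taken to pair the lists, since the labels tie them to no shared batch and a line has 2 pairs. Same-numbered lists deviated together in SKBR3 (correlation over genes 0.24 for promoters, 0.64 for coverage) and not in MDA-MB-453 (-0.04 for both). Within the pairs, covered length in SKBR3 was longer with TWEAK in both pairs for 7 genes and shorter for 2. In MDA-MB-453 it was longer for 3 and shorter for 3. Shares over all genes were not computed for counts by pair, with the replicate block or under the other alternatives, apart from limma. These counts are therefore not read as a result about the junction genes. With the replicate block the CDH1 difference stayed at -27.3 kb at p = 0.125, the smallest that exact sign-flips of 4 pairs give, 8 promoters and 9 covered lengths differed the same way in all pairs, and with TWEAK 3 promoters in SKBR3 and 4 in MDA-MB-453 did. TWEAK counts depended on single lists, and a limma fit added after seeing the data called 0 promoters in SKBR3 and 0 in MDA-MB-453. Promoters without overlap with TWEAK in SKBR3 numbered 1, but 2 at q under 1e-05, 0 at the 5′ end, 2 by width and 2 to 8 with a list left out, which leaves 1 list in an arm. In MDA-MB-453 they numbered 3, but 1 at the 5′ end and 6 to 8 with a list left out. SKBR3 regions gained or lost numbered 5, but 3 at q under 1e-05, 12 at 50% overlap, 1 with no flank, 2 with 10 kb flanks and 13 to 25 with a list left out. In MDA-MB-453 they numbered 1, but 2 with equal list sizes and 3 to 5 with a list left out.

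Single genes changed sign in few cases. The TJP1 coverage difference was -2.30 kb at q under 1e-05, -0.11 kb with equal lists, -1.51 kb with no flank, -1.37 kb with 10 kb flanks, -30.7 bp per Mb covered and -1.06 to 0.84 kb with a list left out, under 0 without SKBR3 TWEAK replicate 2 (-1.06) and without MDA-MB-453 TWEAK replicate 2 (-0.05), and none of these passed the exact permutation test. The 5′ end alone gave -0.44 for CTNNA1, 38.0 for CTNND1 and 58.7 for EPCAM in percentile points. Rank by width gave 1.99 for CTNND1 and 1.25 for CLDN3 between the lines, and with TWEAK 4.11 for CTNNB1 in SKBR3 and 27.3 for CTNNB1 and 0.46 for CLDN3 in MDA-MB-453. With a list left out CLDN3 ranged from -2.41 to 1.28, above 0 without SKBR3 untreated replicate 2 (0.05) and without SKBR3 TWEAK replicate 2 (1.28). The causes were not tested. Between the lines, limma called 8 promoters, CTNND1 being added (adjusted p = 0.0423), beside 63.7% of 12950 genes. It called 9 covered lengths, beside 71.4% of 18218 genes. The depth of the lists is unknown, and a peak just under the threshold of a list counts as absent here.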
